A study of Mus musculus with 4 samples.

Results

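The secreted apolipoproteins and the enzyme that loads lipid onto nascent particles were followed as 10 genes over 4 mouse liver arrays. The members were chosen by symbol: Apob and Mttp, which build triglyceride-rich particles; Apoa1, Apoa2 and Apom of high-density lipoprotein (HDL); Apoa4, Apoa5, Apoc1 and Apoc3, which act on triglyceride metabolism; and Apoe, a ligand of lipoprotein receptors. All 10 were found among the 19938 genes that the platform annotation names with exactly 1 symbol, each on 1 row of the deposited table. The genotypes were GHR-/-MDR2-/- (loss of the growth hormone receptor and of MDR2, called double knockout here), GHR-/-, MDR2-/- and wild type. MDR2 is the product of Abcb4 and carries phosphatidylcholine into bile, and mice without it are a model of cholestasis and liver fibrosis. Each genotype was 1 array, and each array carried a pool of RNA made from 3 livers; the labels give the mice as male and 8 weeks old. The sources used here do not give the strain, diet, feeding state or the way each gene was inactivated.

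Hepatocytes assemble very-low-density lipoprotein (VLDL) around a single molecule of apolipoprotein B, with the microsomal triglyceride transfer protein Mttp adding lipid in the endoplasmic reticulum. Apolipoproteins A1 and A2 are the main proteins of HDL, and the C apolipoproteins and A5 set how fast lipoprotein lipase clears triglyceride. Growth hormone acts on liver lipid handling through its receptor, JAK2 and STAT5.

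Most of the 10 genes differed little between genotypes, and 2 stood apart with different patterns. Apoa4 was low on the arrays without GHR, and its intensity was 3.91-fold lower in the double-knockout than in the MDR2-/- pool. Apom was low on the arrays without MDR2, 1.84-fold lower in the MDR2-/- than in the wild-type pool. Apoa5, Apoc3 and Mttp were lowest in the double-knockout pool, by smaller amounts. Apoe and Apob each lay within 1.04-fold over all 4 arrays.

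The values are linear intensities, and differences are given as log2 differences or as folds between single arrays. With 1 array per genotype a pairwise difference has no replicate check and no p-value, and it describes the pools. The 1 test was limma over all 4 arrays with loss of GHR and loss of MDR2 as additive terms. Each effect sets 2 arrays against 2, and the 2 on a side differ in the other loss and are not replicates. The residual of the fit is how far the 2 losses depart from adding. The intervals and p-values rest on this, shared over genes, and not on a spread between replicate pools. Benjamini-Hochberg adjustment was over 10764 genes. Of these genes, 13.1% had an unadjusted p under 0.05 for GHR loss and 23.6% for MDR2 loss, and counts of unadjusted p below are read against these shares. At an adjusted p under 0.05, 0.204% rose with GHR loss and 2.99% with MDR2 loss. Because whole tissue was measured, fewer cells of a type and less RNA per cell cannot be told apart.

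The targeted genes and the labels were checked first. Ghr intensity was 935 and 1395 in the double-knockout and GHR-/- pools, against 4485 and 4944 in the MDR2-/- and wild-type pools. Abcb4 was 689 and 663 in the double-knockout and MDR2-/- pools, against 1346 and 1120 in the GHR-/- and wild-type pools. The sources used here do not give the exons that the probes of either gene read. Xist, a transcript of female cells, was 17 in the double-knockout, 1400 in the GHR-/-, 18 in the MDR2-/- and 16 in the wild-type pool, although all are labelled male. Each value of the GHR-/- pool below comes from that array, and the part of this in any difference was not tested. The comparison of the double-knockout with the MDR2-/- pool does not use it. Defining hepatocyte genes were present throughout, and the summed intensity of 19 hepatocyte markers was 158862 in the double-knockout, 155923 in the GHR-/-, 162712 in the MDR2-/- and 165480 in the wild-type pool. Single markers moved within this sum. In the double-knockout 3 were at least 1.5-fold lower and 1 higher than in the wild-type pool, where 7.58% and 13.7% of all genes were.

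**Figure D1:**
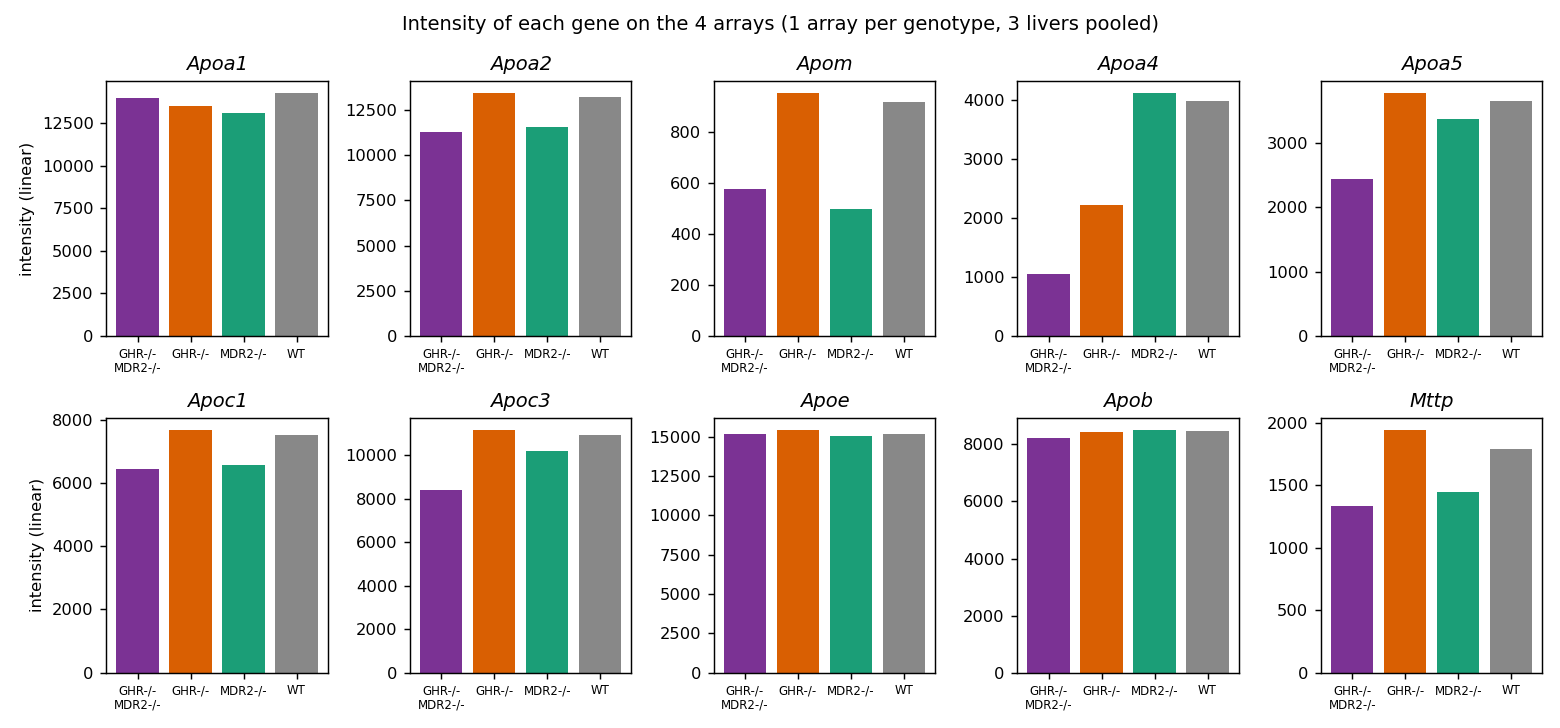
Linear intensity (vertical axes, from 0, a separate scale for each gene) of the 10 genes on the 4 arrays, 1 bar per genotype and no error bars because each genotype is 1 array. Apoa4 falls short on the arrays without GHR (1053 and 2227, against 4119 and 3983), Apom on those without MDR2 (574 and 498, against 951 and 916), and Apoe is level.

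Of the genes of particle assembly, Apob was level and Mttp varied mildly. Apob, which encodes the structural protein of VLDL, had an intensity of 8211 in the double-knockout, 8420 in the GHR-/-, 8512 in the MDR2-/- and 8464 in the wild-type pool. The highest of these was 1.04-fold the lowest. In limma the effect of GHR loss on Apob was -0.03 on the log2 scale (95% interval -0.38 to 0.32, adjusted p = 0.946), and that of MDR2 loss was -0.01 (interval -0.36 to 0.33, adjusted p = 0.961). Each gene has 1 residual degree of freedom, so these intervals rest mostly on the spread shared over all genes.

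Mttp, whose product transfers triglyceride onto Apob, was 1331 in the double-knockout, 1942 in the GHR-/-, 1445 in the MDR2-/- and 1792 in the wild-type pool. Both arrays without MDR2 lay below both arrays with it. The difference was -0.55 (log2) between the double-knockout and the GHR-/- pool, a 1.46-fold lower value, and -0.31 between the MDR2-/- and the wild-type pool. The limma effect of MDR2 loss was -0.43 (95% interval -0.80 to -0.06), with an unadjusted p of 0.030 and an adjusted p of 0.164, so it did not pass the threshold of 0.05. With GHR loss Mttp showed an effect of -0.00 (adjusted p = 0.998).

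Of the HDL genes, Apoa1 and Apoa2 were nearly level and Apom was not. Apoa1, the main HDL protein and activator of cholesterol esterification by LCAT, was 13976 in the double-knockout, 13509 in the GHR-/-, 13084 in the MDR2-/- and 14250 in the wild-type pool. Apoa2, the second HDL protein, was 11275 in the double-knockout, 13440 in the GHR-/-, 11566 in the MDR2-/- and 13208 in the wild-type pool. The pools without MDR2 were lower in Apoa2 than those with it, by 0.25 (log2) between the double-knockout and GHR-/- pools and by 0.19 between the MDR2-/- and wild-type pools. The limma effect of MDR2 loss on Apoa2 was -0.22 (adjusted p = 0.387), and that on Apoa1 was -0.04 (adjusted p = 0.901).

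Apom encodes the lipocalin that carries sphingosine-1-phosphate on HDL. Its intensity was 574 in the double-knockout and 498 in the MDR2-/- pool, against 951 in the GHR-/- and 916 in the wild-type pool. The 2 arrays without MDR2 were both well below the 2 with it, and GHR status made little difference within either pair. Other cell types also differed with MDR2 status: the summed intensity of 11 cholangiocyte markers was 2876 and 1311 in the double-knockout and MDR2-/- pools, against 912 and 736 in the GHR-/- and wild-type pools, and their part in the Apom values was not tested. The Apom difference was -0.88 (log2) between the MDR2-/- and wild-type pools, the 115th lowest of 10258 genes compared, and -0.73 between the double-knockout and GHR-/- pools. The limma effect of MDR2 loss was -0.80 (95% interval -1.16 to -0.45). Apom fell with MDR2 loss at an adjusted p of 0.0494, the only one of the 10 genes to pass, where 0.762% of all genes tested passed in the lower direction. The call sits at the threshold: over 7 alternative settings the adjusted p ran between 0.0384 and 0.327, and 2 of them were below 0.05. The effect of GHR loss on Apom was 0.13 (adjusted p = 0.741), and the non-additivity, that is, the log2 difference with GHR loss when MDR2 is lost minus the same difference when it is present, was 0.15 against a robust SD of 0.32 over all genes.

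The promoter of Apom is printed because this gene followed MDR2 status, together with those of Apoa4 and Apoa5, neighbours on chromosome 9 that differed in size of response. Each is the 250 bases before the annotated start in RefSeq (GRCm38.p6), 5′ to 3′ on the strand of the gene. Apom lies at chr17:35131802-35132051 on the minus strand, Apoa4 at chr9:46240594-46240843 on the plus strand and Apoa5 at chr9:46268358-46268607 on the plus strand. Capitals mark motif matches, CAAAGTTCA in Apoa4 and TATAAA in Apoa5, and Apom has none.
Apom: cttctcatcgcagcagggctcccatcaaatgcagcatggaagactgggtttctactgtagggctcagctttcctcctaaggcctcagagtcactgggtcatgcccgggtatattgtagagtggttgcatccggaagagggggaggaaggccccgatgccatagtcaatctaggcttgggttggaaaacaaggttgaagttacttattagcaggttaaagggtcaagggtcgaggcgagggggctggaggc
Apoa4: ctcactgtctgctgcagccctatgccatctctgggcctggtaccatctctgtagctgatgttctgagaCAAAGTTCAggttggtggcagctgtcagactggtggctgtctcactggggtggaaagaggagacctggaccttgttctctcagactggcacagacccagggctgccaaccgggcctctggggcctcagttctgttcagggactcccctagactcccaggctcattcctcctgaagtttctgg
Apoa5: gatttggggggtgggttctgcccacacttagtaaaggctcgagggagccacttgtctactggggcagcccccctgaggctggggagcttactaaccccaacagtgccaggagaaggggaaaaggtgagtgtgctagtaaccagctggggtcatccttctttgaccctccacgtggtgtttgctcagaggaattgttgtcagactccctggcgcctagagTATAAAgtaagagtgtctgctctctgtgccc

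Windows of 300 bases (250 before and 50 after the start) were found for 8 of the 10 genes, 12 windows in all, and both strands were searched. TTCNNNGAA, the form bound by STAT5, was found in none of the 12 windows and in 8.30% of all 32851 windows of that length. CAAAGTCC, an HNF4-type motif, was in none of them and in 1.42% of all windows, and the DR1 and HNF1-type motifs were likewise in none, with 0.0396% of all windows holding DR1 and 0.00913% the HNF1-type motif. TATAAA was in 13.6% of all windows, and in windows of Apoa2, Apoe, Apoa5 and Apob. In the Apoa5 window printed above it starts 31 bases before the start site. CAAAGTNCA, another HNF4-type motif tried after the windows had been seen, was in the Apoa4 window, 182 bases before the start, and in 1.41% of all windows. It shares its first 6 letters with CAAAGTCC. A match is a description of letters only.

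Apoa4, an apolipoprotein of triglyceride-rich particles and HDL that the mouse liver and intestine make, differed most of the 10 genes. Its intensity was 1053 in the double-knockout, 2227 in the GHR-/-, 4119 in the MDR2-/- and 3983 in the wild-type pool. Both arrays without GHR were below both arrays with it, and the double-knockout pool was the lowest. The difference between the double-knockout and MDR2-/- pools was -1.97 (log2), which leaves 25.6% of the MDR2-/- intensity and is the 56th lowest of 10524 genes compared. Between the GHR-/- and wild-type pools it was -0.84, the 135th lowest of 10052, or 55.9% of the wild-type intensity. Loss of MDR2 with GHR present made no such difference (0.05, MDR2-/- minus wild type), while with GHR absent the double-knockout lay 1.08 (log2) below the GHR-/- pool.

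The difference in Apoa4 with GHR loss was larger without MDR2 than with it. The non-additivity was -1.13, beside a robust SD of 0.32, and the 145th lowest of 10764 genes. Had the single differences added on the log2 scale, the double-knockout value would have been 2303 in place of 1053. No array is left over to test this. In the additive limma fit, where non-additivity is the residual, the effect of GHR loss was -1.40 (95% interval -2.11 to -0.70), with an unadjusted p of 0.00338 and an adjusted p of 0.176. It did not pass, in this setting or in the 7 alternatives (adjusted p 0.150 to 0.518). No member passed for GHR loss, where 0.316% of all genes passed in the lower direction, and 1 of 10 had an unadjusted p under 0.05, near the share of all genes.

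The intestinal epithelium also makes Apoa4, and the summed intensity of 12 enterocyte markers was 4068 in the double-knockout, 5597 in the GHR-/-, 4883 in the MDR2-/- and 5461 in the wild-type pool. Their part in the Apoa4 values was not tested. Sucrase-isomaltase (Sis) was 12 in the double-knockout, 12 in the GHR-/-, 11 in the MDR2-/- and 12 in the wild-type pool, and lactase (Lct) and the alkaline phosphatase Alpi were under 50 on every array. Of the 12 markers, 8, 8, 7 and 8 were under an intensity of 100 in the double-knockout, GHR-/-, MDR2-/- and wild-type pools. The peptidases Anpep (1870 to 2455 over the 4 arrays) and Dpp4 (1533 to 1870) held most of the sum. The glucose transporter Slc5a1 was 187 and 141 in the double-knockout and MDR2-/- pools, against 56 and 67 in the GHR-/- and wild-type pools. It rose with MDR2 loss (limma log2 effect 1.41, adjusted p = 0.0346, between 0.0277 and 0.327 over 6 alternatives, 3 of them below 0.05). The fatty acid binding gene Fabp2 varied between arrays, at 92 in the double-knockout, 871 in the GHR-/-, 530 in the MDR2-/- and 1251 in the wild-type pool.

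**Figure D2:**
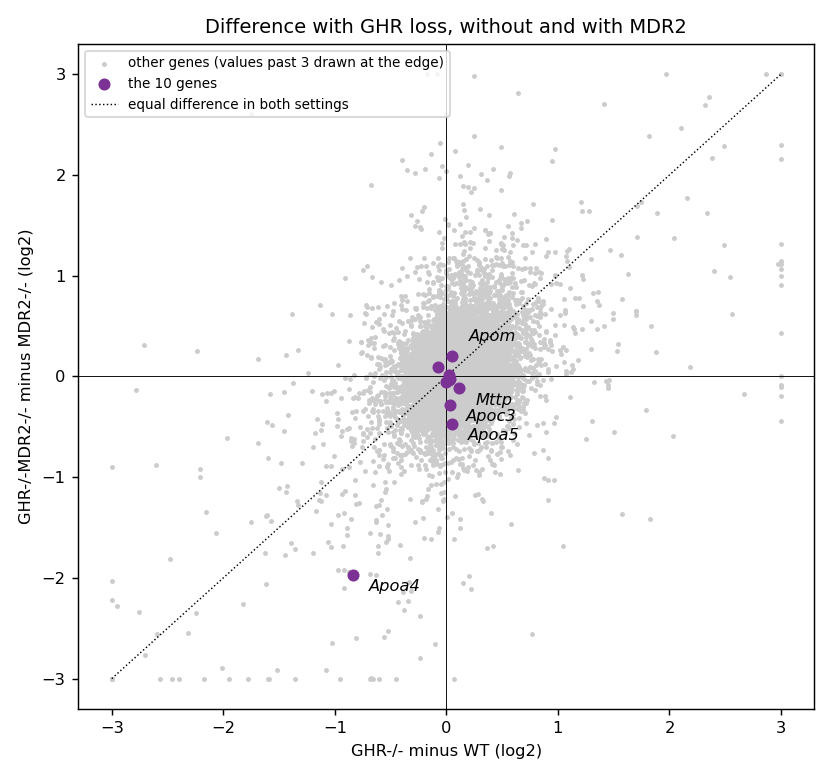
Log2 difference with GHR loss when MDR2 is absent (vertical axis, GHR-/-MDR2-/- minus MDR2-/-) against the same when MDR2 is present (horizontal axis, GHR-/- minus WT), 1 point per gene, with the 10 genes in purple. Apoa4 lies at -0.84 and -1.97, below the line of equal difference, and Apoa5 lies at 0.05 and -0.47.

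Apoa5, an activator of triglyceride clearance, was 2437 in the double-knockout, 3774 in the GHR-/-, 3373 in the MDR2-/- and 3646 in the wild-type pool. Only the double-knockout value stood apart from the other 3. Its difference was -0.47 (log2) from the MDR2-/- pool and -0.63 from the GHR-/- pool, while the GHR-/- and wild-type pools differed by 0.05, a sign that turned with median centring. The non-additivity of -0.52 was above the robust SD of 0.32 in size and the 942nd lowest of 10764. Neither additive effect passed (GHR loss -0.21, adjusted p = 0.659, MDR2 loss -0.37, adjusted p = 0.276).

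Apoc3, an inhibitor of lipoprotein lipase and of remnant uptake, was 8406 in the double-knockout, 11176 in the GHR-/-, 10201 in the MDR2-/- and 10940 in the wild-type pool. The lowest value was again the double-knockout's, at -0.28 (log2) from the MDR2-/- and -0.41 from the GHR-/- pool. The non-additivity was -0.31, about the robust SD over all genes. Apoc1, which inhibits lipase action, was 6454 in the double-knockout, 7694 in the GHR-/-, 6566 in the MDR2-/- and 7546 in the wild-type pool. It was lower by 0.25 in the double-knockout than in the GHR-/- pool, and by 0.20 in the MDR2-/- than in the wild-type pool, with a limma effect of MDR2 loss of -0.23 (adjusted p = 0.377).

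The profiles of Apoc1 and Apoa2 were the closest pair among the 10 genes. After each log2 profile was centred on its own mean, their Euclidean distance over the 4 arrays was 0.00986, and the next pair, Apoe and Apob, was at 0.0510. The nearest member to Apoa4 was Apoa5, at 1.24, and Apom and Apoa4 were the farthest apart, at 1.69. With 4 arrays these distances describe the values and say nothing of shared control.

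Apoe, the receptor ligand of remnants, had an intensity of 15145 in the double-knockout, 15437 in the GHR-/-, 15032 in the MDR2-/- and 15148 in the wild-type pool. The 4 values lie within 1.03-fold of each other. Macrophages also make Apoe, and the summed intensity of 19 macrophage markers was 18119 in the double-knockout, 9110 in the GHR-/-, 13811 in the MDR2-/- and 6463 in the wild-type pool. Of those markers, 5 were at least 1.5-fold higher in the double-knockout than in the MDR2-/- pool, where 7.16% of all genes were. Between the MDR2-/- and wild-type pools 14 were higher, where 6.07% of all genes were. None was 1.5-fold lower in either. Lyz2, at 5243 in the double-knockout and 2879 in the MDR2-/- pool, added most to the difference between these sums. Clec4f (628 against 885), Timd4, Vsig4, Cd163 and Cd5l were lower in the double-knockout of these pools by less than 1.5-fold, and the other markers were higher. The part of the marker difference in any Apoe value was not tested. In limma the effects on Apoe were 0.02 for GHR loss (95% interval -0.33 to 0.36) and -0.02 for MDR2 loss (interval -0.36 to 0.33).

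**Figure D3:**
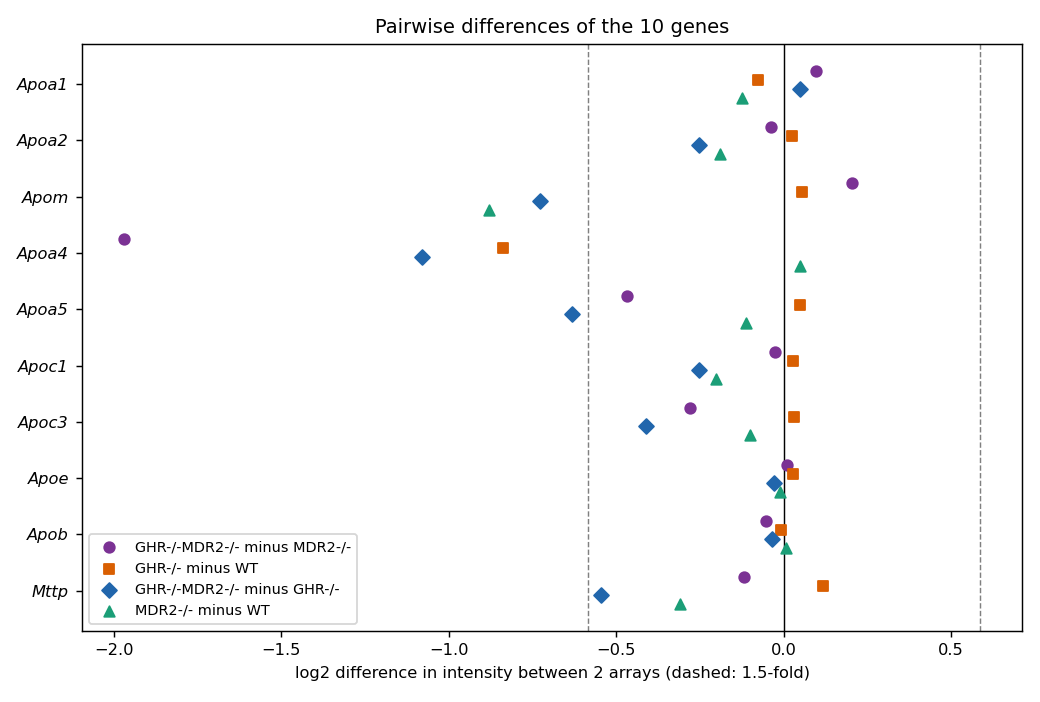
Log2 difference in intensity (horizontal axis) of each of the 10 genes in 4 pairwise comparisons of single arrays, with dashed lines at 1.5-fold and no error bars, since each genotype is 1 array. The points of Apoe and Apob cluster at 0, while Apoa4 reaches -1.97 and Apom -0.88.

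Counted at 1.5-fold, members were lower and none was higher in any of 5 comparisons. Of all genes, 7.16% were higher in the double-knockout than in the MDR2-/- pool, 9.95% in the double-knockout than in the GHR-/- pool and 4.23% in the GHR-/- than in the wild-type pool, so 0 of 10 is near the background. The share higher than in the wild-type pool was 6.07% for the MDR2-/- and 13.7% for the double-knockout pool. In the double-knockout against the MDR2-/- pool 1 of 10 was lower (Apoa4), where 3.89% of all 10524 genes compared were, and in the GHR-/- against the wild-type pool 1 of 10 was lower (Apoa4), where 2.47% were. In the MDR2-/- against the wild-type pool 1 of 10 was lower (Apom), against 3.59% of all genes, and in the double-knockout against the GHR-/- pool 3 were lower (Apoa4, Apoa5 and Apom), against 9.92%. In the double-knockout against the wild-type pool 2 were lower (Apoa4 and Apom), against 7.58%. The count of 3 was 2 with median centring, without Apoa5, and 4 with hepatocyte centring, with Mttp. These comparisons share arrays, so the counts are not independent. Apoa5 stood just inside the threshold at 1.55-fold against the GHR-/- pool and just outside it at 1.496-fold against the wild-type pool, and Mttp was outside at 1.46-fold against the GHR-/- pool. The median log2 difference of the 10 genes was -0.04, beside 0.06 for all genes, between the double-knockout and MDR2-/- pools, and -0.12, beside -0.04, between the MDR2-/- and wild-type pools.

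The counts were also taken among bright genes. Apoa1, Apoa2, Apob, Apoc1, Apoc3 and Apoe each averaged an intensity of at least 5000, as did 163 genes in all, and the highest intensity in the table was 22355. None of these 6 was 1.5-fold apart in any comparison, and their differences ran between -0.41 and 0.10 (log2). The value of -0.41 was that of Apoc3 between the double-knockout and GHR-/- pools. Shares of the bright genes are given for the lower direction only, and not for the double-knockout against the GHR-/- or wild-type pool. The count of these 6 thus has no bright-gene background for those comparisons or for the higher direction. Among the 163 bright genes, 4.29% were at least 1.5-fold lower in the double-knockout than in the MDR2-/- pool and 2.45% in the GHR-/- than in the wild-type pool. The share lower in the MDR2-/- than in the wild-type pool was 0.613%. The robust SD of the non-additivity was 0.23 among them, against 0.32 over all genes whose highest array reached an intensity of 100. A bright signal may be compressed on an array, and whether it was here was not tested.

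Apoa1, Apoc3, Apoa4 and Apoa5 lie side by side on chromosome 9, in that order, so the neighbours give a local comparison. Between the double-knockout and MDR2-/- pools the log2 differences were 0.10 for Apoa1, -0.28 for Apoc3, -1.97 for Apoa4 and -0.47 for Apoa5. Outside the cluster, Sik3 next to Apoa1 differed by 0.11 and Zpr1 next to Apoa5 by 0.17. The large difference was thus at Apoa4, with smaller ones of the same sign on both sides of it and none of that sign at Sik3 or Zpr1. The sign for Apoa1 turned with centring (lowest value -0.01). Between the GHR-/- and wild-type pools the values were -0.08, 0.03, -0.84 and 0.05 in the same order, and only Apoa4 was 1.5-fold apart.

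**Figure D4:**
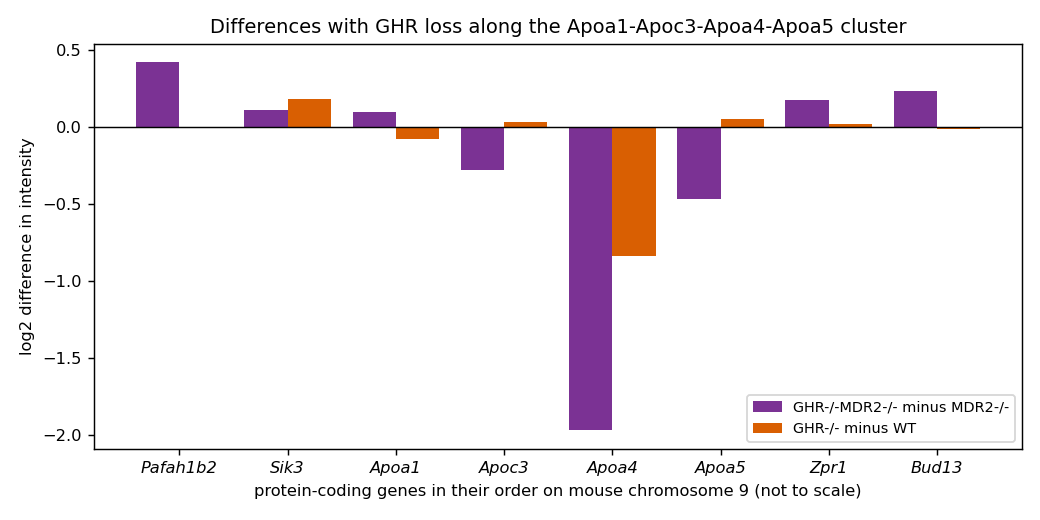
Log2 difference in intensity (vertical axis) with GHR loss, without MDR2 (purple) and with MDR2 (orange), for protein-coding genes in their order on chromosome 9, not to scale. Apoa4 stands out at -1.97 and -0.84, and with MDR2 absent the flanking genes Sik3 and Zpr1 lie at 0.11 and 0.17.

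The second cluster, on chromosome 7, holds Apoc2, Apoc4, Apoc1 and Apoe. Apoc2 has only a row shared with another symbol, at 4976 in the double-knockout and 3723 in the wild-type pool, described further below. Apoc4, an apolipoprotein of VLDL, had an intensity of 2051 in the double-knockout, 3156 in the GHR-/-, 2368 in the MDR2-/- and 3074 in the wild-type pool. It was lower on both arrays without MDR2, as Apoc1 beside it was, while Apoe was level. The limma effect of MDR2 loss on Apoc4 was -0.50 (adjusted p = 0.127) and did not pass. Tomm40 beyond Apoe was 297 in the double-knockout, 329 in the GHR-/-, 297 in the MDR2-/- and 300 in the wild-type pool.

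The 5 genes nearest to Apoa4 in centred log2 profile over the 4 arrays were Adh4, Cish, Gadd45g, C4a and Mug2, at distances between 0.283 and 0.352. Adh4, an alcohol and retinol dehydrogenase, was 1304 in the double-knockout, 2302 in the GHR-/-, 3884 in the MDR2-/- and 4268 in the wild-type pool. Cish, a cytokine signalling inhibitor that growth hormone induces, was 95 in the double-knockout, 154 in the GHR-/-, 320 in the MDR2-/- and 352 in the wild-type pool. Both have their lower values on the arrays without GHR and their lowest in the double-knockout pool. Because all 5 were picked by closeness to Apoa4 on these same arrays, this likeness follows from the selection. Of the others, the complement gene C4a was 353, 534, 1141 and 1093 in the same order of pools.

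Further apolipoproteins and proteins carried on HDL gave 12 measured genes of 17 listed. Between the double-knockout and MDR2-/- pools 2 were at least 1.5-fold lower and none higher, with a median of -0.30 beside 0.06 for all genes, where 3.89% of all genes were lower. Against the GHR-/- pool 5 were lower and 1 higher in the double-knockout, where 9.92% and 9.95% of all genes were. Saa4, a constitutive HDL protein, was 1289 in the double-knockout and 3469 in the MDR2-/- pool, and Apon was 1528 and 2736 in these pools. Pon1, the HDL-borne paraoxonase, was 4408 in the double-knockout, 8195 in the GHR-/-, 6334 in the MDR2-/- and 8255 in the wild-type pool. Clu, the chaperone clusterin also known as apolipoprotein J, went the other way with MDR2 status, at 6859 in the double-knockout and 6461 in the MDR2-/- pool, against 3151 in the GHR-/- and 3484 in the wild-type pool. Clu rose with MDR2 loss (limma log2 effect 1.01, adjusted p = 0.0363, between 0.0244 and 0.327 over 7 alternatives, 3 of them below 0.05). It was the only one of 10 tested to pass for MDR2 loss, where 5 had an unadjusted p under 0.05. None passed for GHR loss, where 1 had an unadjusted p under 0.05.

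Of 27 genes of particle assembly and secretion, 26 were measured. Between the double-knockout and MDR2-/- pools 3 were at least 1.5-fold lower and none higher, where 3.89% and 7.16% of all genes were, with a median of -0.12 beside 0.06 for all genes. Against the GHR-/- pool 4 were lower and 1 higher in the double-knockout, where 9.92% and 9.95% of all genes were. Tm6sf2, which helps to lipidate VLDL, was 668 in the double-knockout, 1984 in the GHR-/-, 1344 in the MDR2-/- and 1085 in the wild-type pool, the highest being the GHR-/- pool that carried Xist. Sec23b, a coat protein of vesicles leaving the endoplasmic reticulum, was 923 in the double-knockout and 1576 in the MDR2-/- pool, and Sec24d was 541 and 851. Sar1b, the GTPase of that coat, was 4805 in the double-knockout, 5192 in the GHR-/-, 4978 in the MDR2-/- and 5149 in the wild-type pool. Ces1d, a lipase that mobilises triglyceride for VLDL, fell with MDR2 loss (effect -1.08, adjusted p = 0.0382, between 0.0280 and 0.327 over 7 alternatives, 3 of them below 0.05). It was 2534 and 2767 in the double-knockout and MDR2-/- pools, against 6202 and 5080 in the GHR-/- and wild-type pools. It was the only one of 26 tested to pass, and 3 had an unadjusted p under 0.05 for MDR2 loss and 2 for GHR loss, both below the shares of all genes, 23.6% and 13.1%. Apobec1, the deaminase that edits Apob mRNA, was 1205 and 961 in the double-knockout and MDR2-/- pools, against 600 and 589 in the GHR-/- and wild-type pools, with an adjusted p of 0.0504 for MDR2 loss.

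Genes of HDL formation and remodelling gave 9 measured of 11 listed. Against the GHR-/- pool 3 were at least 1.5-fold lower and 1 higher in the double-knockout, where 9.92% and 9.95% of all genes were. The lower ones were the endothelial lipase Lipg, Pcolce2 and the sphingosine-1-phosphate receptor S1pr1, and the higher one was the cholesterol exporter Abcg1. Lipg was 113 in the double-knockout, 262 in the GHR-/-, 191 in the MDR2-/- and 152 in the wild-type pool, highest on the array with Xist. Abcg1 was 372 in the double-knockout, 229 in the GHR-/-, 293 in the MDR2-/- and 206 in the wild-type pool. Against the MDR2-/- pool 1 was lower in the double-knockout (Lipg), where 3.89% of all genes were. Against the wild-type pool 1 was higher in the double-knockout (Abcg1), where 13.7% of all genes were. In the GHR-/- pool 1 was higher than in the wild-type pool (Lipg), where 4.23% of all genes were. None was 1.5-fold apart between the MDR2-/- and wild-type pools, where 3.59% of all genes were lower and 6.07% higher. The cholesterol exporter Abca1, which gives lipid to Apoa1, was 1495 in the double-knockout, 1510 in the GHR-/-, 1370 in the MDR2-/- and 1598 in the wild-type pool. None of the 9 passed the limma test for either loss, and 1 and 3 had an unadjusted p under 0.05 for GHR and MDR2 loss, beside 13.1% and 23.6% of all genes.

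Lipases and receptors that act on the particles had 15 of 19 genes measured. In the double-knockout against the MDR2-/- pool 3 were at least 1.5-fold higher and 1 lower, where 7.16% and 3.89% of all genes were, with a median of -0.01 beside 0.06 for all genes. The higher ones were Lpl, Vldlr and Angptl8. Lpl, the lipase that Apoc3 inhibits, was 1801 in the double-knockout, 565 in the GHR-/-, 730 in the MDR2-/- and 373 in the wild-type pool. It rose with MDR2 loss (effect 1.32, adjusted p = 0.0409, between 0.0325 and 0.327 over 7 alternatives, 3 of them below 0.05). The limma effect of GHR loss on Lpl was 0.95 (adjusted p = 0.197). Lpl was the only one of 11 tested to pass, and the part of other cell types in its values was not tested. Vldlr, a receptor for triglyceride-rich particles, was 215 in the double-knockout, 775 in the GHR-/-, 99 in the MDR2-/- and 99 in the wild-type pool. Its 7.83-fold higher value in the GHR-/- than in the wild-type pool was the widest of this list, on the array with Xist. Angptl8, an Lpl inhibitor, was 1287 in the double-knockout, 1736 in the GHR-/-, 631 in the MDR2-/- and 966 in the wild-type pool. Lmf1, which matures lipases in the endoplasmic reticulum, was 786 in the double-knockout, against 1237 in the GHR-/-, 1242 in the MDR2-/- and 1243 in the wild-type pool. No gene of this list passed for GHR loss, and 3 had an unadjusted p under 0.05.

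Transcriptional regulators known to act on apolipoprotein genes gave 23 measured of 25 listed. Hnf4a, the nuclear receptor that drives many of the 10 genes, was 2959 in the double-knockout, 3242 in the GHR-/-, 3279 in the MDR2-/- and 2833 in the wild-type pool. Creb3l3, which activates Apoa4, was 1025 in the double-knockout, 1274 in the GHR-/-, 1310 in the MDR2-/- and 1297 in the wild-type pool. Both lie within 1.28-fold over the 4 arrays. Between the double-knockout and MDR2-/- pools 1 regulator was at least 1.5-fold higher and 3 lower, where 7.16% and 3.89% of all genes were, with a median of -0.15 beside 0.06. Against the GHR-/- pool 9 of 23 were lower in the double-knockout and none higher, where 9.92% of all genes were lower, and the count was 8 with cyclic loess or median centring. The 9 were Nr1d1, Mlxipl, Nr0b2, Cebpa, Ppargc1b, Srebf1, Nr5a2, Foxa2 and Stat5b. All of these but Srebf1 were highest in the GHR-/- pool, on the array with Xist. The list median between the GHR-/- and wild-type pools was 0.24, beside 0.10 for all genes. Nr5a2 was 662 in the double-knockout, 1087 in the GHR-/-, 636 in the MDR2-/- and 753 in the wild-type pool. The part of the GHR-/- array in this count was not tested. Against the wild-type pool 6 were lower and 1 higher in the double-knockout, where 7.58% and 13.7% of all genes were. The regulator higher than in the MDR2-/- pool, the coactivator Ppargc1a, was 542 and 606 in the double-knockout and GHR-/- pools, against 228 and 287 in the MDR2-/- and wild-type pools (GHR loss 1.16, adjusted p = 0.0550). Those lower than in the MDR2-/- pool were Nr1d1, Mlxipl and the bile acid receptor Nr1h4. Nr1d1, a clock repressor known to act on Apoc3, was 556 in the double-knockout, 2030 in the GHR-/-, 1136 in the MDR2-/- and 1042 in the wild-type pool, and the sources used here do not give the time of day of collection. None of 22 tested passed for either loss, and 2 and 8 had an unadjusted p under 0.05 for GHR and MDR2 loss, beside 13.1% and 23.6% of all genes.

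**Figure D5:**
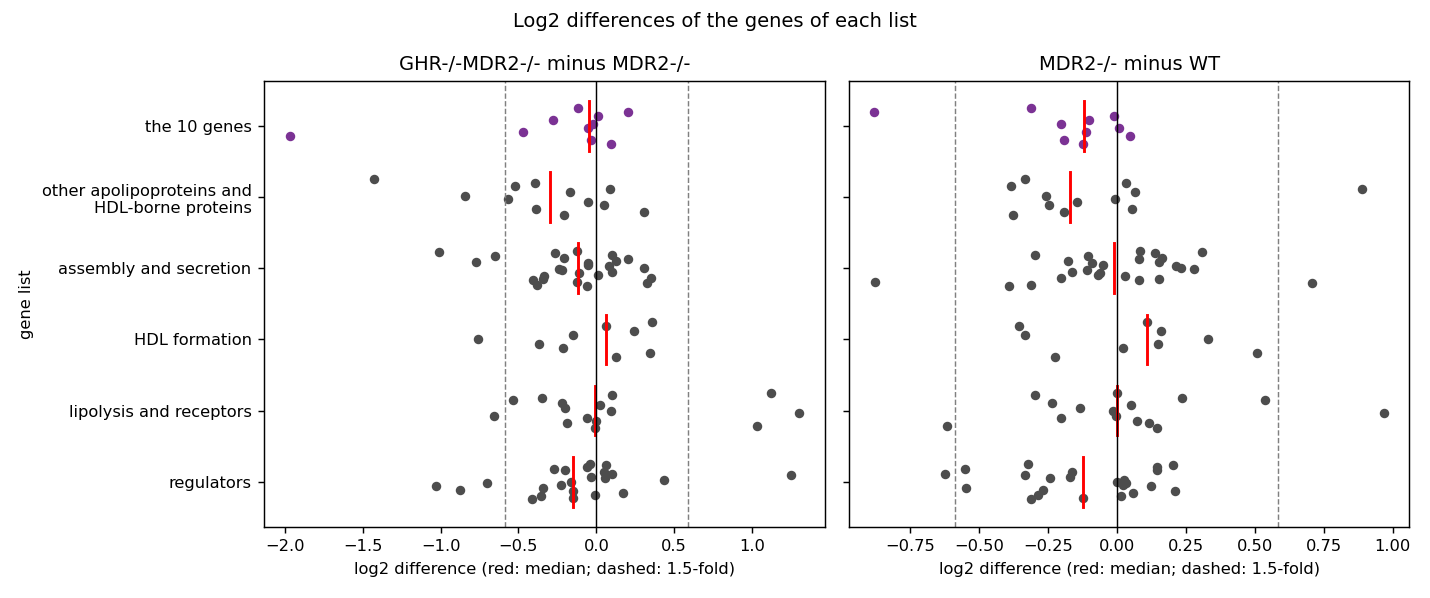
Log2 difference in intensity (horizontal axes, a separate scale for each panel) of every measured gene in 6 lists, for the double-knockout minus MDR2-/- pools (left) and the MDR2-/- minus wild-type pools (right), with the list median in red and dashed lines at 1.5-fold. Apoa4 is the lowest point of the left panel at -1.97, and the median of the 10 genes lies at -0.04 there and at -0.12 in the right panel.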

How the data were processed

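Liver RNA of 4 genotypes was measured on Affymetrix whole-transcript arrays, 1 array per genotype. Per the submitters' processing notes, the deposited intensity values were made with RMA in Affymetrix Expression Console 1.1. RMA corrects background, normalizes between arrays and summarises probes. The values were whole numbers between 6 and 22355, so they are linear, and log2 was taken. No detection calls were used.

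Of 35556 rows, 21789 had exactly 1 symbol in the platform annotation, 1621 several and 12146 none. A gene with several such rows took the brightest. For shares, medians and ranks over all genes, a gene entered a comparison where the higher array reached 100, the median of rows with 1 symbol. Genes of the lists were counted and entered the list medians at any intensity. Some lay under 100 on every array, such as Apod (26 in the double-knockout and 24 in the wild-type pool). The list counts and the shares of all genes beside them are thus filtered differently. Pearson r between arrays was 0.970 to 0.988. limma 3.58.1 (R 4.3.3) fitted additive GHR and MDR2 terms with eBayes (1 residual and 4.34 prior degrees of freedom). A run on simulated data used additive effects and noise drawn from the fit itself. It cannot show how the fit behaves where the 2 losses do not add. The precision is limited by the number of arrays. Alternatives were cyclic loess, median and hepatocyte centring, the mean of all rows, other filters, a 2-fold threshold, and trend and robust settings. Named genes were the members, the targeted and sex-linked genes, up to 4 genes with the largest difference in each list and comparison, any listed apolipoprotein or regulator, and the 5 nearest to Apoa4. Abca1, Sar1b, Sis, Lct, Sik3, Zpr1 and Tomm40 fall outside this rule and were chosen after their values were seen. The members and lists were chosen with earlier results of these data known.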

Additional observations from a re-analysis of the deposited data

Results flagged for a closer look

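Xist had an intensity of 1400 in the GHR-/- pool, against 16 in the wild-type pool, and it was looked at because it lies outside the lipoprotein genes and stands far above the other arrays. Genes of the Y chromosome were present too: Eif2s3y, Kdm5d and Uty had intensities of 680, 259 and 308 in that pool, against 899, 268 and 361 in the wild-type pool.

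The row that names both Apoc2 and Gm44805 was left out because it carries 2 symbols. Its intensity was 4976 in the double-knockout, 3761 in the GHR-/-, 3734 in the MDR2-/- and 3723 in the wild-type pool. The double-knockout value was 1.33-fold that of the MDR2-/- pool and above the wild-type level, where Apoc4, Apoc1 and Apoe nearby were not higher in the double-knockout than in the wild-type pool. Apoc2 is the activator of lipoprotein lipase, and the signal of this row cannot be assigned to it alone.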

How the results depend on the processing

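No paired analysis was possible because each genotype is 1 array. None of the 50 pairwise differences of the 10 genes moved by more than 0.15 (log2) under cyclic loess, median centring, hepatocyte centring or the mean of all rows. In 19 of them the sign turned, all with a size of at most 0.12. Median centring shifted the median of all genes by -0.12 between the GHR-/- and wild-type pools, and hepatocyte centring by -0.15 between the double-knockout and wild-type pools and by -0.11 between the double-knockout and MDR2-/- pools. At 2-fold in place of 1.5-fold, 0 members were lower in the GHR-/- and 0 in the MDR2-/- than in the wild-type pool. In the double-knockout 1 was lower than in the MDR2-/- pool, 1 than in the GHR-/- pool and 1 than in the wild-type pool. The share of all genes at 2-fold is not given here, so these counts have no background beside them. For MDR2 loss, 0 members passed limma under cyclic loess, median centring, hepatocyte centring, no intensity filter or the 75th percentile filter, where the adjusted p of Apom was 0.0906, 0.0615, 0.0726, 0.327 and 0.0718. Over all genes, limma called 322 higher and 82 lower for MDR2 loss, against 30 and 4 with cyclic loess, 36 and 10 with hepatocyte centring, 57 and 12 with the 75th percentile filter and 0 without a filter. For GHR loss it called 22 higher and 34 lower, against 7 and 11, 9 and 15, 11 and 21, and 0 in these settings. The cause was not tested. Rounding to whole numbers and 1 array per genotype limit what small differences can show.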
